A study of Mus musculus with 18 samples.

Results

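The 10 integrin subunits described here are Itgal, Itgb2, Itga4, Itgb1, Itgb7, Itgae, Itga6, Itga1, Itgav and Itgb3. They were picked by gene symbol out of the 23930 genes of a targeted mouse transcriptome panel (Ion AmpliSeq), which amplifies 1 short piece of each transcript. All 10 passed the filter on low counts. RNA came from T cells sorted by flow cytometry out of mouse bone marrow, as CD4 cells or CD8 cells, in 18 libraries that form 6 groups of 3. pMT-10 mice have a transgene for IL-10 behind a metallothionein promoter, which zinc turns on, and IL-10 is a cytokine that dampens many immune responses. The mice of the first kind, zinc-fed pMT-10, were given zinc in their water for 30 days. Those of the second, zinc-fed C57BL/6, had the same water and have no transgene. Those of the third, pMT-10 without zinc, carry the transgene and got no zinc. The sample records list 30 days for these mice as well. Ages are not stated in the labels.

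Integrins are pairs of an alpha and a beta chain on the cell surface that bind other cells or the surrounding matrix. Itgal with Itgb2 makes LFA-1, which holds T cells to ICAM proteins. Itga4 pairs with Itgb1 (VLA-4, a receptor for VCAM-1 and fibronectin) or with Itgb7 (a receptor for MAdCAM-1 in the gut). Itgae, also called CD103, pairs with Itgb7 to bind E-cadherin on epithelium. Itgb1 also pairs with Itga6 to bind laminin and with Itga1 to bind collagen, and Itgav, which pairs with Itgb1, Itgb3 or Itgb8, can release active TGF-beta. In bone marrow such receptors hold lymphocytes in place among stromal cells and matrix.

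The libraries held 10546798 to 18519474 counts, so that 1 CPM (a count scaled to a fixed library total) stood for 10.5 to 18.5 reads. Cd4 was at 1711 CPM or more on average in each CD4 group and at 3.14 or less in each CD8 group. Cd8a was at 2012 or more in the CD8 groups and at 4.99 or less in the CD4 groups. Il10 itself was at 26.0, 16.6 and 20.9 CPM in CD4 cells of zinc-fed pMT-10 mice and at 1.40 to 8.25 in the CD4 cells of both other kinds. Among CD8 libraries it was at 22.4, 3.20 and 12.9 in zinc-fed pMT-10 and at 0 in all 6 control libraries, which makes it at least 163-fold higher than in zinc-fed C57BL/6 (against a limit of 3 counts over the group, for counting error only). All 12 zinc-fed libraries ran on 1 sequencing chip and the other 6 on a second, so zinc and chip cannot be told apart. Xist was at 527 CPM or more in every pMT-10 library and at 40.1 or less in every C57BL/6 library, while Ddx3y was at 110.5 or more in C57BL/6 and at 0.683 or less in pMT-10. Sex and strain therefore cannot be told apart either.

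The genes are placed here by the GENCODE annotation of GRCm38. Itgal lies at chr7:127296260-127335138, Itgb2 at chr10:77530252-77565708, Itgb1 at chr8:128685654-128733200 and Itga4 at chr2:79255426-79333123. Itgb7 lies at chr15:102215995-102231944 on the minus strand, Itgae at chr11:73090583-73147446 and Itgb3 at chr11:104608000-104670476. Itga6 and Itgav lie at chr2:71745616-71858416 and chr2:83724397-83806916, and Itga1 at chr13:114953096-115101964 on the minus strand. The annotation places the coding genes Pelo and Gm49395 inside or across Itga1 on the same strand, Cerkl across Itga4 and Haspin across Itgae, both on the opposite strand. Noncoding genes or pseudogenes also overlap Itga1, Itga6 and Itgav. Whether the counting used strand is not given in the sources used here, and the positions of the amplicons within the genes were not used here.

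Promoter sequence was at hand for 5 of the 10 members, from RefSeq on GRCm38.p6, and the 3 printed here belong to chains that can share partners. Itgb1 fell in CD4 cells, while its partner Itga4 and the other partner of Itga4, Itgb7, were not called. Each is the 250 bases before the start that RefSeq gives, and the last few bases of the Itgb7 window lie inside the gene as GENCODE places it. Capitals mark matches on either strand to TGTGGT (the core that RUNX factors bind) and GGGCGG (the core of a GC box).
Itgb1 (chr8:128685404-128685653, plus strand): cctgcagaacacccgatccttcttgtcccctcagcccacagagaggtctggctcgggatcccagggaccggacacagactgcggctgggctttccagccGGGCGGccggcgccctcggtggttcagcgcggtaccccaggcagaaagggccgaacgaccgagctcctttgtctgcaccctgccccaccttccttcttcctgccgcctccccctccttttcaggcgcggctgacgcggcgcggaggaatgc
Itga4 (chr2:79255176-79255425, plus strand): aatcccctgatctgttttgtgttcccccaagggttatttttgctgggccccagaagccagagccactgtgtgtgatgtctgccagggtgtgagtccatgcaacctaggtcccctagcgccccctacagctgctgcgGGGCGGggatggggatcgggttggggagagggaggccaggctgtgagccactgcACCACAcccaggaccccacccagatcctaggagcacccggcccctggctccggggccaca
Itgb7 (chr15:102231936-102232185, minus strand): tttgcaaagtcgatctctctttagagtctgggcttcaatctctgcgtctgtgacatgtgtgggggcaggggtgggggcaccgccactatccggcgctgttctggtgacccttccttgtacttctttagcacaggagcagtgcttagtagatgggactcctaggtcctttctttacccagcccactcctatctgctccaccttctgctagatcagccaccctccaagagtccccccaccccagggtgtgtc
The Itgb1 window is 68.0% G and C with 21 CpG pairs, that of Itga4 is 64.0% with 6, and that of Itgb7 is 56.0% with 5. Of the windows not printed, that of Itgav is 64.4% with 18 and that of Itga1 is 57.6% with 10. Over all 32851 windows of this length the medians are 52.4% and 6. Itgb1 and Itga4 each hold 1 GGGCGG, found in 32.7% of all windows, and Itga4 holds 1 TGTGGT, found in 14.045% of them. Neither of these, nor TATAAA (12.4% of windows), is in the Itgb7 window. A part of these sequences in the members' changes was not tested.

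The question put to the members was how their RNA differed in T cells of mice that overexpress IL-10. Zinc-fed pMT-10 mice were set against each control, and since the same 3 libraries enter both comparisons, the results of the comparisons are not independent. A gene was called at an adjusted p under 0.05 in edgeR's quasi-likelihood test with Benjamini-Hochberg adjustment over 11316 genes, and adjusted p values below come from that test. Log2 fold changes are given with their standard errors. Levels are in CPM on TMM-scaled library sizes, and are compared between groups but not between genes, since amplicons amplify unequally. Fewer cells that carry a transcript and less of it in each cell cannot be told apart in bulk samples.

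In CD4 cells the LFA-1 chains rose, Itgae rose, and Itgb1, Itgb3 and Itga6 fell. Against zinc-fed C57BL/6, 3 of 10 members were called higher and 3 lower, where 9.29% of all genes tested were called higher and 9.4% lower. Against pMT-10 without zinc, 3 were called higher and 4 lower, where the shares of all genes were 9.38% and 9.4%. The median log2 fold change of the 10 members was -0.16 and -0.27 in the respective comparisons, beside -0.05 over all genes in both. Few genes were called between the controls: with pMT-10 without zinc set against zinc-fed C57BL/6, no member was called in edgeR or DESeq2 or at an unadjusted p under 0.05, where 0.0795% of genes were called higher and 0.0619% lower, and 4.43% had an unadjusted p under 0.05.

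Markers of other cell types differed between the same CD4 groups, given here in the order zinc-fed pMT-10, zinc-fed C57BL/6 and pMT-10 without zinc. The 6 stroma and endothelium markers summed to 49.7 to 145, 330 to 405 and 291 to 393 CPM. Nearly all of this was Pecam1, a surface protein of endothelium that some T cells carry too, with means of 88.2, 379 and 339 CPM, and Cdh5, a defining endothelial marker, was at 0 in all 3 groups. Cd79b, a B cell receptor component, had means of 7.07, 21.8 and 24.5 CPM, while Pax5, a defining B cell factor, was at 0 in all 3 groups. The 4 stem and progenitor markers summed to 17.8 to 19.8, 5.78 to 7.56 and 4.64 to 7.44, mostly Hlf. Their part in the members' CD4 values below was not tested.

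Itgal encodes the alpha chain of LFA-1. In CD4 cells it was at 771, 848 and 916 CPM in zinc-fed C57BL/6, at 893, 969 and 892 in pMT-10 without zinc, and at 2339, 1833 and 2511 in zinc-fed pMT-10. The lowest zinc-fed pMT-10 library was well above the highest control. The log2 fold change was 1.40 ± 0.20 against zinc-fed C57BL/6 (adjusted p 3.22e-05) and 1.28 ± 0.20 against pMT-10 without zinc (adjusted p 7.70e-05).

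Itgb2, the beta chain that LFA-1 shares with other leukocyte integrins, moved alongside. Its CD4 levels were 785, 604 and 1005 CPM in zinc-fed C57BL/6, 935, 952 and 928 in pMT-10 without zinc, and 2169, 1618 and 2366 in zinc-fed pMT-10. The groups did not overlap, and replicate 2 was the lowest zinc-fed pMT-10 library for both chains. The log2 fold change was 1.36 ± 0.20 (adjusted p 5.38e-05) against zinc-fed C57BL/6 and 1.13 ± 0.20 (adjusted p 0.000342) against pMT-10 without zinc. Over all 18 libraries the log2 CPM of Itgal and Itgb2 correlated at r = 0.961, a description of libraries that share groups. The summed level of 6 T cell markers (Cd3e, Cd3d, Cd3g, Cd4, Cd8a and Cd8b1, none at 0) was also higher in these libraries. It was 7181 to 8168 CPM in CD4 cells of zinc-fed pMT-10. The controls had 4796 to 4974 (zinc-fed C57BL/6) and 3941 to 4015 (pMT-10 without zinc). Of the 6, 2 were called higher against zinc-fed C57BL/6 and 3 against pMT-10 without zinc, and 0 lower. The shares of all genes called higher were 9.29% and 9.38%. Cd3e was 1.61-fold and 1.81-fold higher by mean CPM than in the respective controls. Cd4 was not called (adjusted p 0.295 and 0.0841), nor was Cd8a, with log2 fold changes of -1.87 and -0.30. The part of these markers in the rise of Itgal and Itgb2 was not tested.

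**Figure D1:**
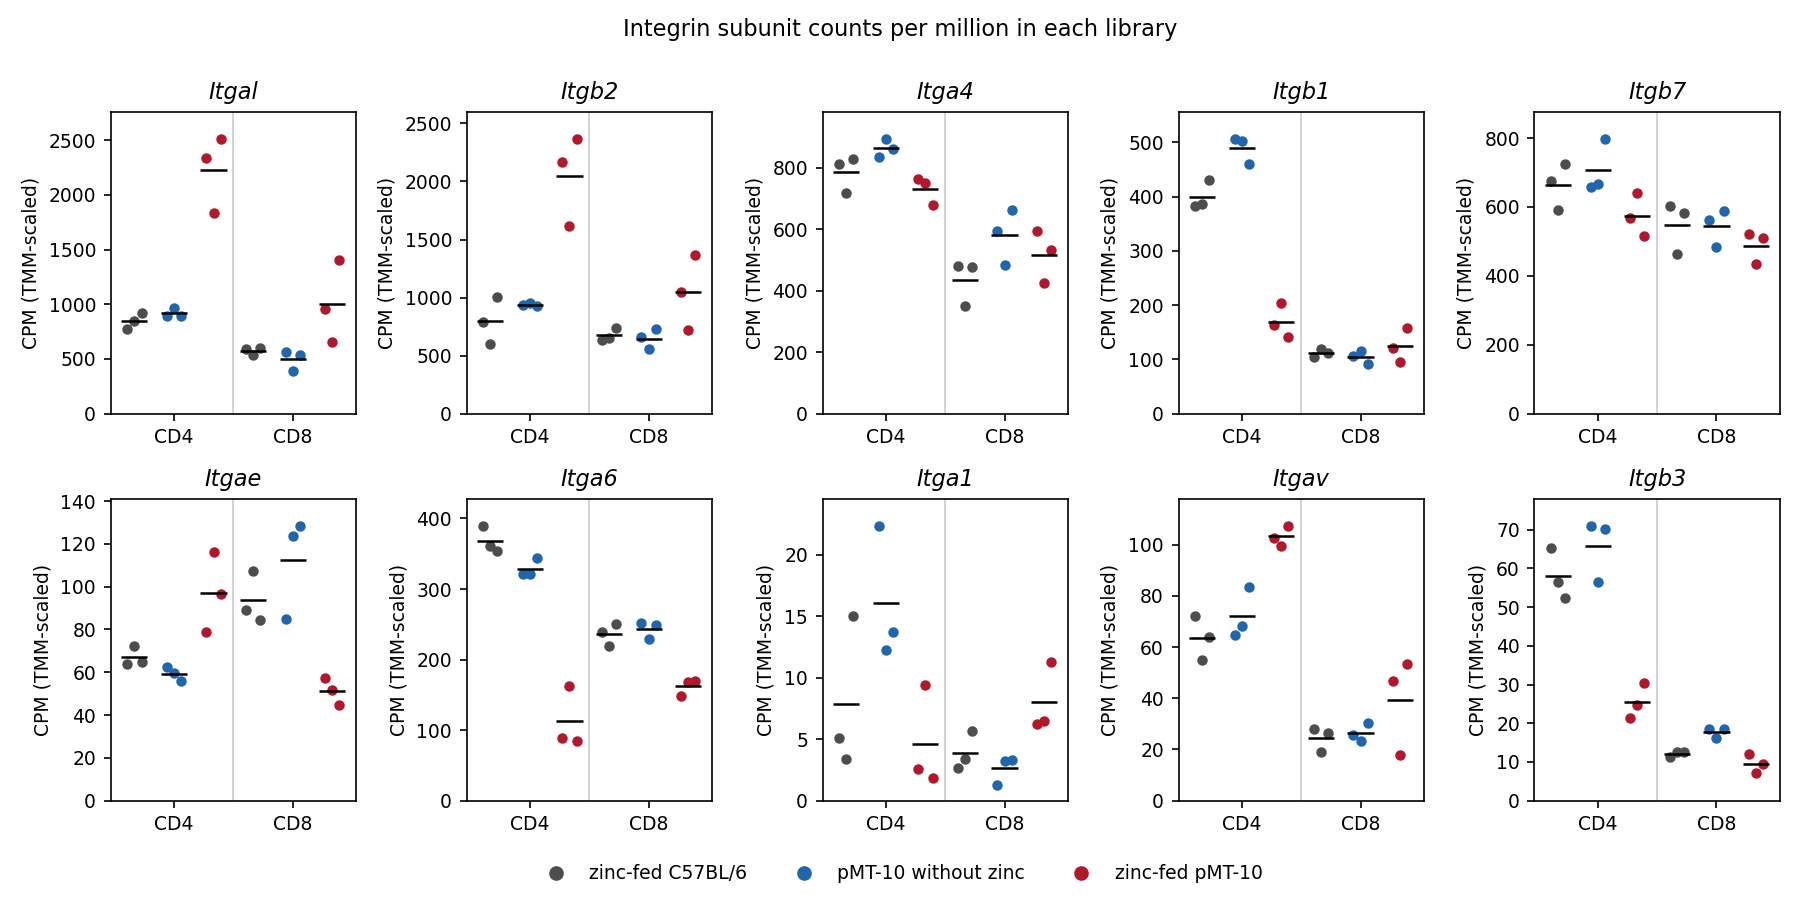
TMM-scaled CPM (linear axes from 0) of each of the 10 members in every library, for CD4 and CD8 cells, with points for the 3 libraries of a group and a bar for their mean. Itgal and Itgb2 of zinc-fed pMT-10 stand above both controls in CD4 cells, Itgb1, Itgb3 and Itga6 stand below, and Itgae is above in CD4 and below in CD8.

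Itgb1, the beta chain of the VLA family, was at 383, 386 and 431 CPM in CD4 cells of zinc-fed C57BL/6 and at 506, 503 and 459.6 in those of pMT-10 without zinc. In zinc-fed pMT-10 it was at 163, 204 and 142. The highest of these 3 libraries lay far below the lowest control. Log2 fold changes were -1.24 ± 0.16 (adjusted p 1.41e-05) and -1.53 ± 0.16 (adjusted p 1.29e-06) against zinc-fed C57BL/6 and pMT-10 without zinc.

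Itga6, a laminin receptor chain and a partner of Itgb1, had the lowest fold change of the 6 members called against zinc-fed C57BL/6 in CD4 cells. Its levels were 389, 361 and 354 CPM in zinc-fed C57BL/6, 321, 321 and 343 in pMT-10 without zinc, and 89.4, 163 and 84.8 in zinc-fed pMT-10. Replicate 2 of zinc-fed pMT-10 again lay nearest to the controls, without reaching them. Log2 fold changes were -1.71 ± 0.18 (adjusted p 8.33e-07) and -1.55 ± 0.18 (adjusted p 2.48e-06).

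Itgb3, the beta chain of the vitronectin receptor and of the main platelet integrin, was at 65.2, 56.6 and 52.4 CPM in zinc-fed C57BL/6 and at 71.0, 56.5 and 70.1 in pMT-10 without zinc. CD4 cells of zinc-fed pMT-10 had 21.5, 24.8 and 30.5. The groups did not overlap, with log2 fold changes of -1.18 ± 0.19 (adjusted p 0.000124) and -1.36 ± 0.19 (adjusted p 2.51e-05). The highest of these zinc-fed pMT-10 libraries, replicate 3, was also the one with platelet transcripts: 6 platelet and megakaryocyte markers summed to 159 CPM there, and over the other 17 libraries the sum was 3.67 or less. Without that library the log2 fold change of Itgb3 was -1.33 (adjusted p 0.000263) against zinc-fed C57BL/6 and -1.51 (adjusted p 7.07e-05) against pMT-10 without zinc.

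The alpha chain CD103, encoded by Itgae, went up in CD4 cells by less. It was at 63.8, 72.3 and 64.8 CPM in zinc-fed C57BL/6, at 62.4, 59.5 and 55.7 in pMT-10 without zinc, and at 78.7, 116 and 96.6 in zinc-fed pMT-10. The groups did not overlap, though replicate 1 of zinc-fed pMT-10 lay close to the highest control. Compared with pMT-10 without zinc the log2 fold change was 0.71 ± 0.17 (adjusted p 0.00475). Against zinc-fed C57BL/6 it was 0.54 ± 0.17 (adjusted p 0.0302), and this call ended when any of 4 single libraries was left out (replicate 1 or 3 of zinc-fed C57BL/6, adjusted p 0.104 and 0.0738, or replicate 2 or 3 of zinc-fed pMT-10, adjusted p 0.150 and 0.0738) or when libraries were scaled by total counts alone (0.0828).

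Itgav had CD4 levels of 72.0, 55.1 and 63.8 CPM in zinc-fed C57BL/6, 64.7, 68.4 and 83.4 in pMT-10 without zinc, and 103, 99.6 and 107 in zinc-fed pMT-10. The groups did not overlap, but neither comparison passed the threshold, with log2 fold changes of 0.70 ± 0.26 (adjusted p 0.0634) and 0.52 ± 0.26 (adjusted p 0.174). A fit on the 9 CD4 libraries alone called both (adjusted p 0.00138 and 0.00830). Against zinc-fed C57BL/6 it was also called in DESeq2 (adjusted p 0.0360) and with no filter on low counts (0.00303).

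Itga1, a collagen receptor chain, was low and uneven in CD4 cells: 5.09, 3.40 and 15.004 CPM in zinc-fed C57BL/6, 22.3, 12.3 and 13.7 in pMT-10 without zinc, and 2.55, 9.39 and 1.87 in zinc-fed pMT-10. Only against pMT-10 without zinc was it called (log2 fold change -1.82 ± 0.58, adjusted p 0.0317). That call ended without replicate 1 or 3 of zinc-fed pMT-10 (adjusted p 0.152 and 0.139), without replicate 1 or 3 of pMT-10 without zinc (0.124 and 0.0551), or in a fit of CD4 libraries alone (0.0824). Single libraries also set its size and direction. Without replicate 2 of zinc-fed pMT-10 it was called lower than in zinc-fed C57BL/6 (-1.81, adjusted p 0.0355), and the mean was 7.30-fold lower than in pMT-10 without zinc, as against 3.50-fold with all libraries. Without replicate 3 of zinc-fed C57BL/6 the ratio of its mean in zinc-fed pMT-10 to that control turned from 0.588 to 1.08. NK cell markers differed between the same groups: 4 of them summed to 178 to 201 CPM in pMT-10 without zinc, to 40.6 to 52.3 in zinc-fed C57BL/6 and to 6.44 to 15.9 in zinc-fed pMT-10. Klrb1c, which some T cells carry as well, made up most of it, with means of 171, 39.9 and 9.44 CPM in that order. Ncr1, the defining NK receptor, had means of 0.279 CPM or less in every group. Of the 4 NK markers, 2 passed the filter on low counts. In CD4 cells of zinc-fed pMT-10 these 2 were called lower against each control, where 9.4% of all genes were. With the controls set against each other, 1 of the 2 was called higher in pMT-10 without zinc. The part of the NK markers in the Itga1 values was not tested.

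Neither Itga4 nor Itgb7, the chains of the gut-homing integrin, was called in CD4 cells. The mean of Itga4 was 786 ± 60.6 CPM in zinc-fed C57BL/6, 864 ± 29.3 in pMT-10 without zinc and 731 ± 45.5 in zinc-fed pMT-10 (SD, n = 3 each). Its log2 fold change had 95% intervals of -0.41 to 0.20 and -0.54 to 0.06 against the controls, so a change of the size seen for Itgb1 lies outside them. Itgb7 was at 664 ± 68.0, 707 ± 78.2 and 575 ± 62.5 CPM in the same order, with intervals of -0.49 to 0.07 and -0.58 to -0.02. Its adjusted p was 0.313 and 0.133, and that of Itga4 was 0.673 and 0.274. For both genes the libraries overlapped those of zinc-fed C57BL/6 but not those of pMT-10 without zinc. Itga4 was at 679 to 763 CPM against 836 to 894 there, and Itgb7 at 516 to 640 against 659 to 798.

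In CD8 cells Itgal and Itgb2 also rose, while Itgae fell, and Itgb1 was not called. Against zinc-fed C57BL/6, 2 members were called higher and 1 lower, where 5.68% of all genes were called higher and 3.13% lower. Against pMT-10 without zinc, 2 were called higher and 3 lower, beside 5.1% and 2.64% of all genes. The members' median log2 fold change was 0.20 and 0.04, beside 0.00 over all genes in both comparisons. Between the controls no member was called in edgeR or DESeq2, where 0.0265% of genes were called higher and 0.0707% lower. At an unadjusted p under 0.05, 2 members (Itgb3 and Itga4) and 6.34% of all genes differed between them.

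CD8 levels of Itgal were 595, 535 and 602 CPM in zinc-fed C57BL/6, 559, 392 and 539 in pMT-10 without zinc, and 957, 655 and 1405 in zinc-fed pMT-10. Replicate 2 of zinc-fed pMT-10 stood near the controls and replicate 3 far above. The log2 fold change was 0.80 ± 0.19 (adjusted p 0.0115) and 1.02 ± 0.20 (adjusted p 0.00168). Without replicate 3 of zinc-fed pMT-10 the value against zinc-fed C57BL/6 was 0.48 and no longer called (adjusted p 0.105).

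Itgb2 followed the same order of libraries, with 633, 651 and 738 CPM in zinc-fed C57BL/6, 658, 553 and 729 in pMT-10 without zinc, and 1046, 720.3 and 1368 in zinc-fed pMT-10. Replicate 2 overlapped both controls. The log2 fold change was 0.63 ± 0.20 (adjusted p 0.0495) and 0.69 ± 0.20 (adjusted p 0.0341). The call against zinc-fed C57BL/6 ended without any single replicate of zinc-fed C57BL/6 (adjusted p 0.134, 0.110 and 0.0845 without replicates 1, 2 and 3) and without replicate 1 or 3 of zinc-fed pMT-10 (0.108 and 0.270, the last with a log2 fold change of 0.39). The call against pMT-10 without zinc ended without any single replicate of that control (0.0862, 0.127 and 0.0508) and without replicate 1 or 3 of zinc-fed pMT-10 (0.0771 and 0.219, the last with 0.45). A fit of CD8 libraries alone called Itgb2 against neither control (adjusted p 0.0690 for zinc-fed C57BL/6 and 0.0513 for pMT-10 without zinc). The same replicate 2 had the lowest Il10 of its group, and its part in the LFA-1 values was not tested. The T cell marker sum of the CD8 libraries was 6569 to 7643 CPM in zinc-fed pMT-10, 7798 to 8198 in zinc-fed C57BL/6 and 6561 to 7484 in pMT-10 without zinc.

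Itgae went the other way in CD8 cells. It was at 89.1, 107 and 84.5 CPM in zinc-fed C57BL/6, at 85.1, 124 and 128 in pMT-10 without zinc, and at 57.2, 51.5 and 44.7 in zinc-fed pMT-10. Every zinc-fed pMT-10 library was below every control. Log2 fold changes were -0.87 ± 0.17 (adjusted p 0.00208) and -1.14 ± 0.17 (adjusted p 0.000145), and both calls held without each of the libraries in turn.

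Itga6 was at 239.7, 219 and 250.1 CPM in zinc-fed C57BL/6, at 252, 229 and 248 in pMT-10 without zinc and at 149, 168 and 169 in zinc-fed pMT-10. The groups did not overlap. It was called against pMT-10 without zinc, with a log2 fold change of -0.59 ± 0.17 (adjusted p 0.0394). That call ended without any 1 of those 6 libraries (adjusted p 0.0517 to 0.143) and with scaling by total counts alone (0.0574). Itga6 fell just short of a call against zinc-fed C57BL/6, with -0.55 ± 0.17 (adjusted p 0.0521). It was called lower there with no filter on low counts (0.0149), in DESeq2 (0.0284) and in a fit of CD8 libraries alone (0.0302).

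Itgb3 was low in CD8 cells, at 11.4, 12.5 and 12.6 CPM in zinc-fed C57BL/6, 18.4, 16.1 and 18.5 in pMT-10 without zinc, and 12.1, 7.06 and 9.44 in zinc-fed pMT-10. Here the controls themselves stood apart. The log2 fold change was -0.89 ± 0.20 (adjusted p 0.00591) against pMT-10 without zinc and -0.35 ± 0.20 (adjusted p 0.314) against zinc-fed C57BL/6. The first of these was not called in a fit of CD8 libraries alone (adjusted p 0.0652).

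The other members were not called in CD8 cells with all libraries and the filter on low counts. Itgb1 was at 112 ± 7.74 CPM in zinc-fed C57BL/6, 105 ± 12.03 in pMT-10 without zinc and 124 ± 31.7 in zinc-fed pMT-10 (SD, n = 3 each), with 95% intervals of the log2 fold change of -0.18 to 0.49 and -0.09 to 0.58. Itga4 had log2 fold changes of 0.25 ± 0.15 and -0.17 ± 0.15, and Itgb7 of -0.17 ± 0.13 and -0.16 ± 0.13. Itgav was at 28.1, 19.1 and 26.6 CPM in zinc-fed C57BL/6, at 25.8, 23.1 and 30.1 in pMT-10 without zinc and at 46.9, 17.8 and 53.4 in zinc-fed pMT-10. Its log2 fold change was 0.68 ± 0.26 (adjusted p 0.115) and 0.58 ± 0.26 (adjusted p 0.203), and without replicate 2, the low one, 1.04 (adjusted p 0.000945) and 0.94 (adjusted p 0.00240). With no filter on low counts Itgav was called against zinc-fed C57BL/6 (0.68, adjusted p 0.0121). Itga1 was at 6.23, 6.49 and 11.3 CPM in zinc-fed pMT-10 and at 1.31 to 5.69 in the 6 controls, with an adjusted p of 0.307 and 0.107. With no filter it was called higher than in pMT-10 without zinc (1.60, adjusted p 0.00400).

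**Figure D2:**
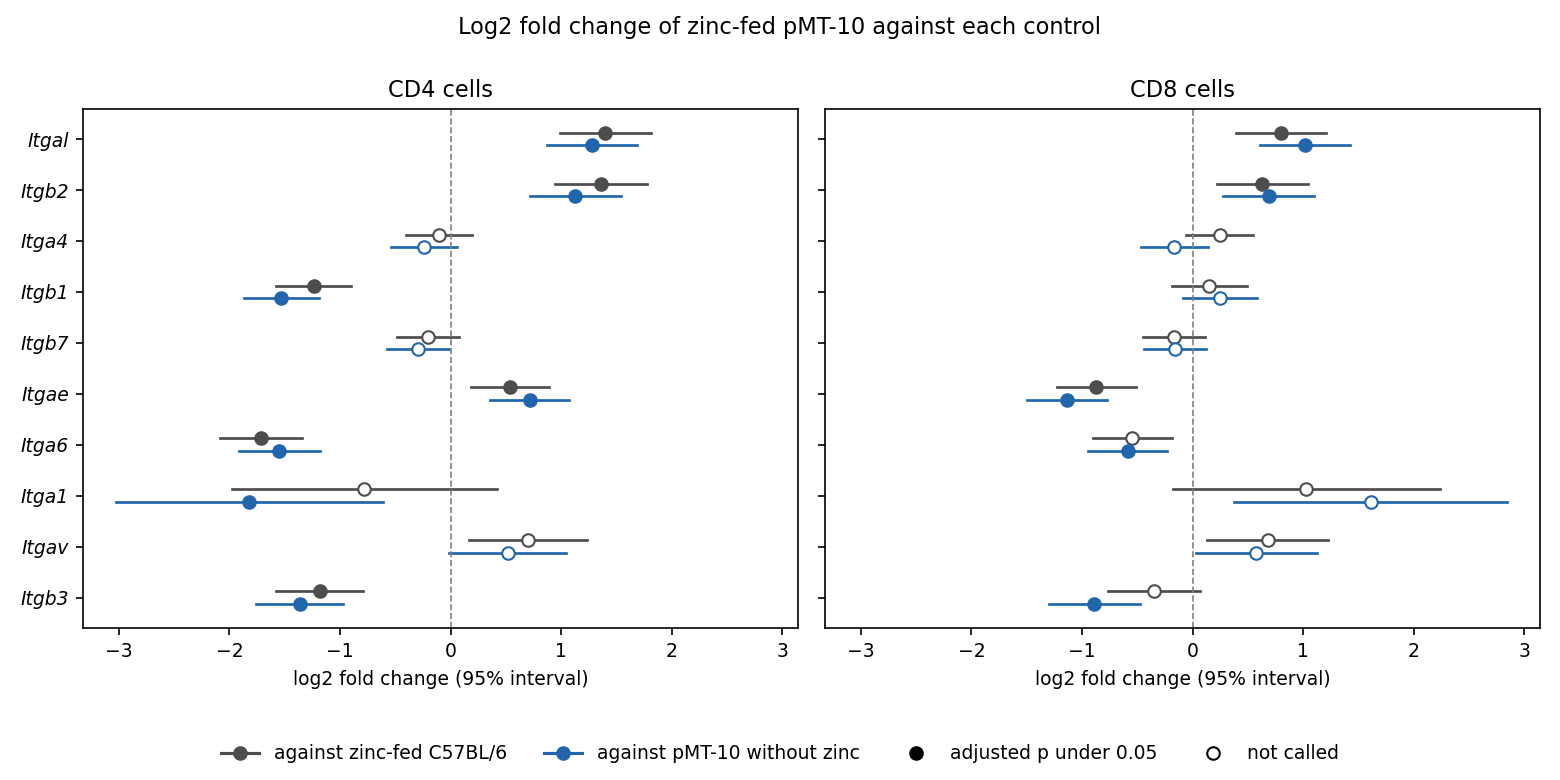
Log2 fold change of zinc-fed pMT-10 over each control, zinc-fed C57BL/6 (grey) or pMT-10 without zinc (blue), in CD4 and CD8 cells, with 95% intervals, filled where the adjusted p is under 0.05. Itgb1 is at -1.24 and -1.53 in CD4 and at 0.15 and 0.25 in CD8, and Itgae lies to the right of 0 in CD4 and to the left in CD8.

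Whether the members' changes differed between the cell types was tested as an interaction, the CD8 change minus the CD4 change. Against zinc-fed C57BL/6, 3 of 10 members were called (Itgb1, Itgae and Itga6), where 5.49% of all genes were called in either direction. Against pMT-10 without zinc, 4 were called (the same 3 and Itga1), beside 3.78% of all genes. For Itgb1 the difference was 1.39 ± 0.23 (adjusted p 0.00130) and 1.77 ± 0.23 (adjusted p 0.000118) on the log2 scale. Itgae differed by -1.41 ± 0.24 (adjusted p 0.00209) and -1.85 ± 0.24 (adjusted p 0.000125), since it was higher in CD4 and lower in CD8 cells. For Itgal the difference was -0.60 ± 0.27 (adjusted p 0.212) and -0.26 ± 0.27 (adjusted p 0.661), and for Itgb2 -0.73 ± 0.28 (adjusted p 0.130) and -0.44 ± 0.28 (adjusted p 0.425). Neither LFA-1 chain passed the threshold, though the unadjusted 95% intervals against zinc-fed C57BL/6, -1.17 to -0.03 for Itgal and -1.31 to -0.15 for Itgb2, left out 0. Without CD8 replicate 3 of zinc-fed pMT-10 both were called against that control (Itgal -0.92, adjusted p 0.0259, and Itgb2 -0.97, adjusted p 0.0370), as was Itgb2 with no filter on low counts (-0.74, adjusted p 0.0203). Itgb3 was called against that control in DESeq2 (0.83, adjusted p 0.0489) and with scaling by total counts alone (0.99, 0.0343). It was also called without CD8 replicate 2 of zinc-fed pMT-10 (1.01, adjusted p 0.0376). Itga1 was called there with no filter (1.80, adjusted p 0.0393) and without CD4 replicate 2 of zinc-fed pMT-10 (2.84, 0.0267).

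The members also differed between CD8 and CD4 cells within each kind of mice. In zinc-fed C57BL/6, 1 member was called higher in CD8 cells and 6 lower, where 9.28% of all genes were called higher and 12.9% lower. In pMT-10 without zinc the counts were 1 and 7, beside 8.94% and 12.8%. Of these 7, Itgb7 (-0.38 ± 0.13, adjusted p 0.0494) was not called without any 1 of the 6 libraries (adjusted p 0.0524 to 0.238) or with no filter on low counts (0.104). In zinc-fed pMT-10 they were 1 and 7 as well, beside 13.4% and 14.7%.

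Itgb1, Itgb3, Itgav, Itga4 and Itgal were called lower in CD8 than in CD4 cells in all 3 kinds of mice. The call of Itgal in zinc-fed C57BL/6 (-0.55 ± 0.19, adjusted p 0.0462) ended without any 1 of the 6 libraries (adjusted p 0.0623 to 0.137), and that of Itga4 in zinc-fed pMT-10 (-0.50 ± 0.15, adjusted p 0.0134) without CD8 replicate 2 (adjusted p 0.102). The gap of Itgb1 was -1.84 ± 0.17 in zinc-fed C57BL/6 (adjusted p 4.10e-08), -2.22 ± 0.17 in pMT-10 without zinc (adjusted p 3.47e-09) and -0.45 ± 0.16 in zinc-fed pMT-10 (adjusted p 0.0422). In the last kind the groups overlapped, at 142 to 204 CPM in CD4 and 94.7 to 158 in CD8, and the call ended without any 1 of 4 libraries (adjusted p 0.0661 to 0.256). The interactions above are the tests of that difference in gap. Itgav kept nearly the same gap in all 3 kinds, with -1.37 ± 0.26, -1.45 ± 0.26 and -1.39 ± 0.26 in the order above, and its interactions of -0.02 ± 0.37 and 0.06 ± 0.36 were not called.

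Itgb3 was 4.77-fold lower by mean CPM in CD8 than in CD4 cells of zinc-fed C57BL/6, 3.73-fold lower in pMT-10 without zinc and 2.68-fold lower in zinc-fed pMT-10. Itgae was higher in CD8 cells of both controls, by 0.48 ± 0.17 (adjusted p 0.0459) in zinc-fed C57BL/6 and 0.92 ± 0.17 (adjusted p 0.000379) in pMT-10 without zinc, and lower in those of zinc-fed pMT-10, by -0.93 ± 0.17 (adjusted p 0.000361). The first of these ended without any 1 of 5 libraries (adjusted p 0.0617 to 0.186). Itga6 was lower in CD8 cells of zinc-fed C57BL/6 (-0.64 ± 0.17, adjusted p 0.00961) and higher in those of zinc-fed pMT-10 (0.53 ± 0.17, adjusted p 0.0261). The second of these ended without any 1 of 4 libraries (adjusted p 0.0672 to 0.165). In pMT-10 without zinc Itga6 was not called in the main fit. It was called lower there in DESeq2 (adjusted p 0.0472), with scaling by total counts alone (0.0389) and in a fit of those mice alone (0.0160). Itga1 was 6.15-fold lower in CD8 than in CD4 cells of pMT-10 without zinc (adjusted p 0.00300).

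**Figure D3:**
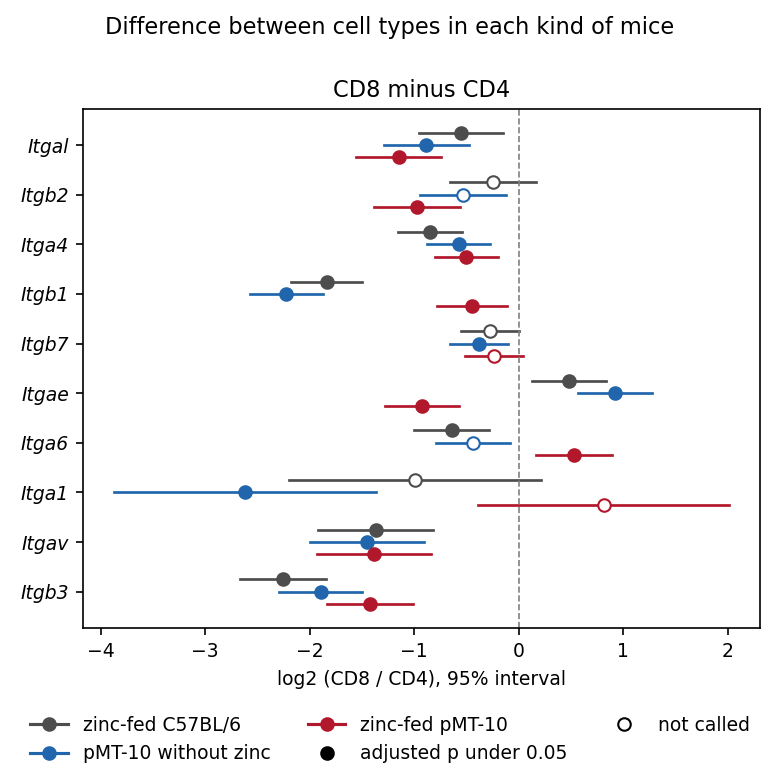
Log2 difference of CD8 and CD4 cells for each member in the 3 kinds of mice (colours), with 95% intervals, filled where the adjusted p is under 0.05. Itgb1 of zinc-fed pMT-10 lies at -0.45, apart from -1.84 and -2.22 in the controls, Itgae changes side, and the 3 values of Itgav nearly coincide.

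Because an integrin is a pair of chains, the log2 ratio of alpha to beta chain CPM (with 0.5 CPM added to each) was taken within each library. Only differences of a ratio between groups can be read, since each amplicon has its own yield. With 3 libraries against 3 an exact two-sided permutation test cannot go below p = 0.1, or 0.218 after adjustment over the 48 comparisons of 8 pairs, so no ratio could pass a threshold. The groups described as not overlapping are those at that smallest value.

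The ratio of Itgal to Itgb2 in CD4 cells was 0.12 ± 0.05 in zinc-fed pMT-10, 0.11 ± 0.33 in zinc-fed C57BL/6 and -0.03 ± 0.05 in pMT-10 without zinc (SD, n = 3 each), the last without overlap with the first. The ratio of Itga4 to Itgb1 was higher in CD4 cells of zinc-fed pMT-10, at 2.12 ± 0.21, than in zinc-fed C57BL/6 at 0.97 ± 0.10 and pMT-10 without zinc at 0.82 ± 0.09, without overlap. In CD8 cells it was 2.07 ± 0.29, 1.95 ± 0.35 and 2.46 ± 0.40 in that order of groups, so the mean of the zinc-fed pMT-10 CD4 libraries lay among the means of the CD8 groups. The ratio of Itga4 to Itgb7 differed by 0.10 and 0.06 in CD4 cells, and the groups overlapped. In CD8 cells it was 0.07 ± 0.11 in zinc-fed pMT-10, -0.34 ± 0.06 in zinc-fed C57BL/6 and 0.08 ± 0.09 in pMT-10 without zinc. Zinc-fed C57BL/6 overlapped neither of the others there. For Itga6 to Itgb1 the CD4 means were -0.64, -0.12 and -0.57 in that order, and only zinc-fed C57BL/6 stood apart. In CD8 cells this ratio differed by -0.67 and -0.80 from the respective controls, without overlap.

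Itgav was set against both beta chains that fell in CD4 cells. Its ratio to Itgb1 there was -2.65 ± 0.21 in zinc-fed C57BL/6, -2.76 ± 0.27 in pMT-10 without zinc and -0.70 ± 0.32 in zinc-fed pMT-10, with no overlap. That of Itgav to Itgb3 was 0.13 ± 0.16, 0.13 ± 0.23 and 2.004 ± 0.22 in the same order. In CD8 cells it was 0.97 ± 0.35, 0.56 ± 0.12 and 1.87 ± 0.58, also without overlap. There the lowest zinc-fed pMT-10 library (1.275) lay right beside the highest of zinc-fed C57BL/6 (1.266). The ratio of Itgae to Itgb7 differed by 0.73 and 0.99 in CD4 cells and by -0.70 and -0.96 in CD8 cells against the respective controls, each without overlap.

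**Figure D4:**
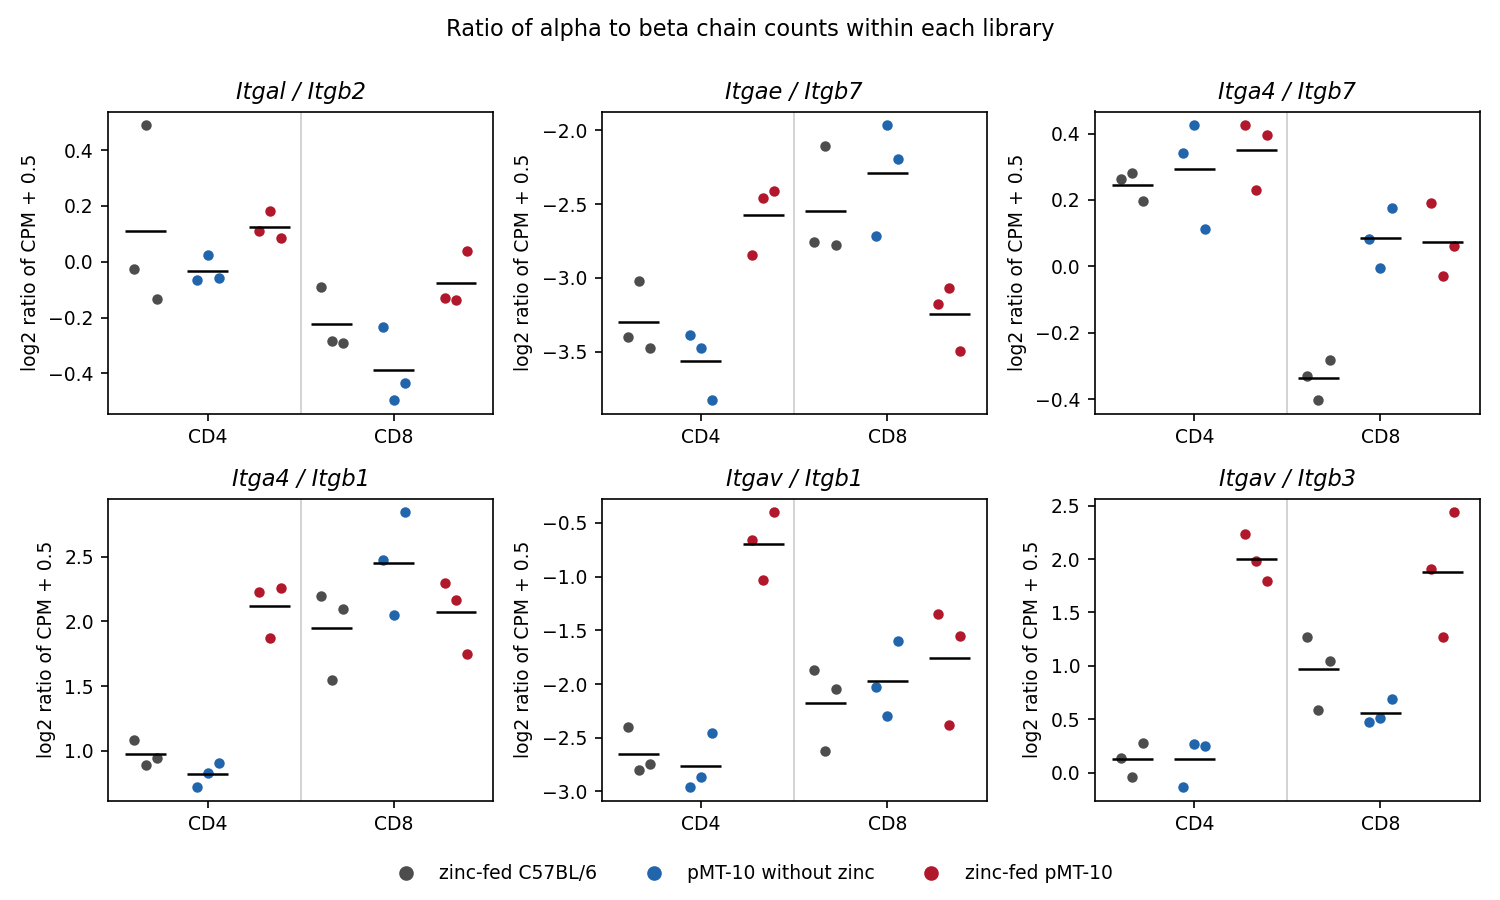
Log2 ratio of alpha to beta chain CPM (0.5 added to each) in every library for 6 of the 8 pairs, with a bar for the mean of each group of 3. The Itga4 to Itgb1, Itgav to Itgb1 and Itgav to Itgb3 ratios of zinc-fed pMT-10 CD4 cells stand above both controls, while Itgae to Itgb7 is above in CD4 and below in CD8.

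Besides the 10 members the panel held 15 of 16 other integrin subunits listed, of which 11 passed the filter on low counts. For each list the counts stand beside the shares of all genes called in the same comparison: in CD4 cells 9.29% higher and 9.4% lower over zinc-fed C57BL/6 and 9.38% and 9.4% over pMT-10 without zinc, and in CD8 cells 5.68% and 3.13%, then 5.1% and 2.64%. In CD4 cells 2 subunits were called higher and 1 lower against each control. Itgad, an alpha chain that pairs with Itgb2, was at 8.58 ± 2.004 CPM in zinc-fed pMT-10, 0.518 ± 0.302 in zinc-fed C57BL/6 and 0.110 ± 0.139 in pMT-10 without zinc (adjusted p 0.00111 and 6.58e-05). Itga2, a collagen receptor chain like Itga1, was at 39.2 ± 5.53, 14.5 ± 6.93 and 14.6 ± 6.15 in that order (adjusted p 0.0183 and 0.0184). Itga5, the fibronectin receptor chain that pairs with Itgb1, was lower, at 0.553 ± 0.458 against 6.31 ± 0.317 and 4.27 ± 1.05 (adjusted p 0.000168 and 0.000808).

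Among CD8 libraries the 2 subunits called higher in zinc-fed pMT-10 against each control were Itgad and Itgb8. Itgad had 262 reads in the 3 zinc-fed pMT-10 libraries, 9 in those of zinc-fed C57BL/6 and 1 in those of pMT-10 without zinc. Itgb8, which pairs with Itgav to release TGF-beta, had 138 reads in the first, 1 in the second and 0 in the third, at least 56.7-fold higher against the last. Of the zinc-fed pMT-10 libraries 1 also had 0 reads of it, and the highest had 6.48 CPM, while CD4 cells of every kind had 32.0 CPM or more. Itga5 was lower than in pMT-10 without zinc (2.34 against 8.74 CPM, adjusted p 0.0220). The median log2 fold change of the tested list was 0.19 and 0.51 in CD4 and 0.82 and 0.66 in CD8 cells. With 1 gene left out, at or under 3 counts in both groups, and 1 set at its bound, the last was 0.92.

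Ligands and counter-receptors were mostly too low to test, with 9 of 26 on the panel passing the filter. Icam1, the main ligand of LFA-1, was higher in CD4 cells of zinc-fed pMT-10 than in both controls, at 94.1 ± 4.74 CPM against 45.4 ± 10.4 and 54.0 ± 12.1 (adjusted p 0.000362 and 0.00376). In CD8 cells it was higher than in zinc-fed C57BL/6, at 71.3 ± 13.9 against 34.8 ± 3.57 (adjusted p 0.00107). Icam2, another LFA-1 ligand, was lower in CD4 cells, at 22.0 ± 5.95 against 59.9 ± 5.004 and 60.3 ± 7.21 (adjusted p 5.38e-05 and 4.64e-05), and in CD8 cells against pMT-10 without zinc (46.8 against 87.2, adjusted p 0.00851). In CD4 cells the list had 1 call in each direction against zinc-fed C57BL/6, and 2 higher (with Spp1, osteopontin) and 1 lower against pMT-10 without zinc. In CD8 cells it had 2 higher and 0 lower, then 2 higher and 1 lower. The others called there were Lamc1, a laminin chain, at 4.51 CPM against 0.456 and 0.4995 in the controls, and Spp1, with 24 reads against 0 in pMT-10 without zinc, at least 9.86-fold higher. The median of the list was -0.03 and 0.80 in CD4 and 0.80 and 0.94 in CD8 cells, with the groups at 0 at their bound.

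Of 24 tested genes that switch integrins on from inside the cell, or hold that switch back, 5 rose and 2 fell in CD4 cells against zinc-fed C57BL/6, and 6 rose and 2 fell against pMT-10 without zinc, so the share that fell was near the 9.4% of all genes. Talin-1 (Tln1), which binds the tails of beta chains, was at 631 ± 32.8 CPM against 405 ± 45.4 and 421 ± 45.5 (adjusted p 0.00199 and 0.00399). Skap2, an adaptor, and Sipa1, which turns off the GTPase Rap1, had log2 fold changes of 0.96 and 0.74 against zinc-fed C57BL/6 (adjusted p 0.0175 and 0.000820). Rasgrp2, the exchange factor that turns Rap1 on, fell in both cell types. It was at 51.4 ± 8.61 CPM in CD4 cells against 198 ± 23.8 and 186 ± 22.5 (adjusted p 1.94e-08 and 4.74e-08), and at 189 ± 22.2 in CD8 cells against 366 ± 25.03 and 362 ± 43.0 (adjusted p 0.000161 in both). In CD8 cells 2 rose and 1 fell in each comparison, and Rap1gap2, a brake on Rap1, was higher at 41.4 ± 6.93 against 7.09 ± 2.71 and 12.96 ± 4.83 (adjusted p 5.28e-06 and 0.000323). List medians were 0.19 and 0.18 in CD4 and -0.01 and 0.06 in CD8 cells.

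Adhesion complex and downstream kinase genes had 26 tested, and in CD4 cells 11 rose and 5 fell against each control, beside 9.29% and 9.38% of all genes higher and 9.4% lower. Fyn, a Src-family kinase, and Zyx, a protein of focal adhesions, had log2 fold changes of 1.28 ± 0.17 (adjusted p 1.24e-05) and 1.23 ± 0.16 (adjusted p 1.11e-05) against zinc-fed C57BL/6, and Nedd9, a docking protein, 1.12 ± 0.33 (adjusted p 0.0229). Actn1 (alpha-actinin) fell from 299 ± 49.7 and 255 ± 8.80 to 51.8 ± 37.1 CPM, with log2 fold changes of -2.53 and -2.31 (adjusted p 0.000193 and 0.000402). Focal adhesion kinase (Ptk2), low in all groups, was at 0.748 CPM against 4.81 and 3.31 (adjusted p 0.00138 and 0.00741), and Tns1 at 11.7 against 32.4 and 30.4 (adjusted p 0.00515 and 0.00800). In CD8 cells 0 rose and 1 fell (Rhoh, -0.66 ± 0.12, adjusted p 0.000937) against zinc-fed C57BL/6, and 1 rose (Ptk2b, 0.59 ± 0.16, adjusted p 0.0305) and 0 fell against pMT-10 without zinc. List medians were 0.34 and 0.30 in CD4 and -0.15 and 0.01 in CD8 cells.

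Of 13 tested genes of the TGF-beta axis, which Itgav and Itgae touch, 0 rose and 2 fell in CD4 cells against each control, namely Ski and Smad4, where 9.4% of all genes were called lower. A count this small is near that share. Ski, a repressor of SMADs, had a log2 fold change of -0.49 ± 0.17 in both (adjusted p 0.0468 and 0.0445). In CD8 cells Ski was at -0.77 ± 0.17 and -0.75 ± 0.17 (adjusted p 0.00550 and 0.00659), with 0 genes higher and 2 lower (Ski and Tgfb1), then 1 higher and 2 lower. The gene called higher, Tgfb3, had 21 reads against 0 in pMT-10 without zinc, at least 8.63-fold higher, and 8 in zinc-fed C57BL/6. List medians were -0.38 and -0.37 in CD4 and -0.25 and -0.24 in CD8 cells, with groups at 0 at their bound.

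Membrane partners and sheddases had 15 tested, with 3 higher and 2 lower in CD4 cells against each control, where 9.29% and 9.38% of all genes were called higher and 9.4% lower. The 2 called lower are near the share of all genes, and the list as a whole was not tested. The metalloprotease Adam19 was at 369 ± 56.8 CPM in CD4 cells against 101 ± 29.6 and 97.7 ± 12.1 (adjusted p 9.57e-06 and 6.52e-06), and at 158 ± 47.97 in CD8 cells against 83.0 ± 6.81 and 77.4 ± 20.2 (adjusted p 0.0135 and 0.00662). Adam17 had log2 fold changes of 0.83 ± 0.21 and 0.67 ± 0.20 in CD4 cells (adjusted p 0.00652 and 0.0252). The tetraspanins Cd82 and Cd9 went in opposite directions there, at 0.92 ± 0.19 and -1.07 ± 0.16 against zinc-fed C57BL/6 (adjusted p 0.00150 and 8.36e-05). In CD8 cells 2 rose and 0 fell, then 2 rose and 2 fell (Cd9 and Cd53), and Adam8 was at 8.32 ± 3.15 CPM against 0.848 ± 0.991 and 0.504 ± 0.254 (adjusted p 0.000546 and 0.000119). List medians were 0.09 and 0.02 in CD4 and -0.09 and -0.03 in CD8 cells. None of the genes in these 6 lists was called between the controls in either cell type.

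For each member the panel's most similar genes were sought by Pearson's r of log2 CPM over all 18 libraries, which share groups and depth, so the values are descriptions. Itgal was nearest to Trerf1 (r = 0.985) and Myo1f (0.976), and Itgb2 to Gng2 (0.974) and again Myo1f (0.968). Itgb1 was nearest to Chdh (0.978) and Phldb3 (0.972), Itgb3 to Tmem154 (0.954) and St8sia6 (0.951), and Itga6 to Ift80 (0.967) and Arhgap5 (0.961). The nearest genes of Itgav were Ksr1 (0.957) and Ell2 (0.949), those of Itga4 Arhgef12 (0.943) and Ptprj (0.934), and those of Itgb7 Sav1 (0.920) and Sp1 (0.895). Itgae had its nearest genes at lower values, in Adipor1 (0.831) and Ctdnep1 (0.823), as had Itga1 in Rab11fip5 (0.781) and Siglec15 (0.759).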

How the data were processed

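RNA of sorted bone marrow T cells (CD4 or CD8) was read with the Ion AmpliSeq Transcriptome Mouse panel. The authors deposited whole-number read counts for 23930 genes, with no scaling. The submitters' processing notes name the build as mm10, with aligner and counter not given in the sources used here. Reads carry no stated molecular identifier, so limits drawn from counts cover counting error only. The design names 3 mice of each kind, but the labels do not say which CD4 and CD8 libraries share a mouse, so replicate numbers follow the order of the records and pair nothing. CD4 and CD8 libraries of a kind thus share mice in an unknown order, and the tests of CD8 against CD4 and of interactions treat them as independent. P-values measure the spread between these libraries. Log2 CPM of replicates correlated at 0.958 or more, and none agreed within sampling noise.

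Counts were filtered with filterByExpr (minimum count 10, leaving 11316 genes), scaled with TMM and tested by the robust quasi-likelihood method of edgeR 4.0.16 (R 4.3.3), with 6 group means over all 18 libraries, since the groups then share 1 estimate of spread. DESeq2 1.42.0, other scalings, no filter, fits of 1 cell type or kind of mice and fits without each library were the alternatives. Benjamini-Hochberg adjustment was over all genes tested. The scripts were tested on simulated data. The CPM values, fold changes and ratios were computed from the deposited counts.

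The members and gene lists were chosen with earlier results of these data known. The text names all 10 members, up to 3 called genes each way per list and comparison with the largest log2 fold change (not all are printed), and the 2 genes most like each member.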

Additional observations from a re-analysis of the deposited data

Results flagged for a closer look

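In 7 cases the change of a member in zinc-fed pMT-10 mice differed between the cell types by edgeR's quasi-likelihood interaction test, given as the CD8 change minus the CD4 change on the log2 scale. Against zinc-fed C57BL/6, Itgb1 differed by 1.39 ± 0.23 (adjusted p 0.00130), Itgae by -1.41 ± 0.24 (adjusted p 0.00209) and Itga6 by 1.17 ± 0.24 (adjusted p 0.00780). Against pMT-10 without zinc, Itgb1 differed by 1.77 ± 0.23 (adjusted p 0.000118), Itgae by -1.85 ± 0.24 (adjusted p 0.000125), Itga6 by 0.96 ± 0.24 (adjusted p 0.0301) and Itga1 by 3.43 ± 0.83 (adjusted p 0.0248). The direction of Itgae differed, with all 3 zinc-fed pMT-10 libraries above the controls in CD4 and all 3 below in CD8. Both comparisons use the same zinc-fed pMT-10 libraries. The Itga6 value against pMT-10 without zinc missed the threshold in 10 fits that left out 1 library (adjusted p up to 0.113), and the Itga1 value in 5 of them (adjusted p up to 0.0820), while those of Itgb1 and Itgae passed in all of them.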

How the results depend on the processing

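Of the 51 member values called over the 11 comparisons, 36 were called in the same direction under every alternative run and 37 without each library in turn, and none reversed. In CD4 cells Itgal, Itgb2, Itgb1, Itga6 and Itgb3 kept their calls against both controls throughout. The number of members called in CD8 cells against zinc-fed C57BL/6 was 3, but 5 with no filter on low counts and 1 to 4 without single libraries, the 1 being without replicate 3 of zinc-fed pMT-10. With the other control it was 5, but 3 with libraries of that cell type only and 3 to 5 without single libraries. For CD8 against CD4 in zinc-fed pMT-10 it was 8, with 5 to 8 without single libraries (5 without CD8 replicate 2). The interaction count against zinc-fed C57BL/6 was 3, but 5 with no filter, and 3 to 5 without single libraries (5 without zinc-fed pMT-10 CD8 replicate 3), and against pMT-10 without zinc it was 4, with 2 to 4. Pathway genes called lower in CD8 cells against zinc-fed C57BL/6 numbered 4, and 9 in DESeq2. The causes were not tested. Scaling by total counts alone shifted the median of all genes by -0.11 and -0.15 log2 units in CD4 cells (zinc-fed pMT-10 over each control, C57BL/6 first) and by 0.16 and 0.17 in the interactions. It moved the higher and lower calls over all genes in CD4 cells from 1051 and 1064 to 831 and 1448 (over C57BL/6) and from 1061 and 1064 to 770 and 1688, in CD8 cells over C57BL/6 from 643 and 354 to 731 and 245, and in CD8 over CD4 from 1512 and 1666 to 1845 and 1354 in zinc-fed pMT-10 and from 1012 and 1446 to 750 and 1673 in pMT-10 without zinc. The interaction calls, 621 and 428 in either direction, became 648 higher and 120 lower and 537 higher and 76 lower. It also called Itgb7 lower in CD4 cells against pMT-10 without zinc (-0.44, adjusted p 0.0267). No paired analysis was possible because the labels give no replicate numbers that tie libraries to a mouse. Itga1 had the fewest reads of the members in every group, 116 to 792. Its libraries also differed widely within a group, with 39, 106 and 25 reads in CD4 cells of zinc-fed pMT-10. The part of depth in its values was not tested.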
